A study of Mus musculus with 7 samples.

Results

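The epidermal growth factor (EGF) receptor family and its ligands were followed in cholangiocytes, the epithelial cells that line the bile ducts, as 9 genes taken by name from a count table of 24552 gene symbols. They were the ligand genes Hbegf, Btc, Tgfa, Areg and Ereg, the receptor genes Egfr, Erbb2 and Erbb3, and Errfi1, which encodes an inhibitor of the receptors. Of the 9 genes, 8 had counts in at least 1 library and 7 passed the filter on low counts and were tested. Livers came from Foxp3GFPDTR mice, in which cells that express Foxp3, the regulatory T cells, are made sensitive to diphtheria toxin. All mice were fed the bile duct toxicant DDC for 10 days and were injected into the peritoneum every 48 h with saline (PBS, 4 libraries) or with diphtheria toxin at 1 µg/kg (DT, 3 libraries). Both groups therefore share the genotype and the injury, there is no group without DDC, and no allele beyond Foxp3GFPDTR, no age and no sex is given in the labels. EpCAM-positive cells were isolated and sequenced from the 3′ ends of their transcripts. Whether every library is a separate animal is not stated, so p-values here reflect the spread among libraries, part of which may be technical.

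The receptors of this family are tyrosine kinases that sit in the cell membrane and pair with one another when a ligand binds. EGFR binds EGF, TGF-alpha, amphiregulin, epiregulin, betacellulin and HB-EGF. ERBB2 has no known ligand of its own and serves as a partner, while ERBB3 binds neuregulins and has a weak kinase. The ligands are made as membrane proteins and are cut free by ADAM proteases, and the activated receptors feed the RAS to ERK and PI3K to AKT pathways. In the liver, EGF receptor signalling is known for its part in regeneration, and cholangiocytes proliferate in response to EGF. HB-EGF also has a second role in this model, since the human form of this protein is the receptor through which diphtheria toxin enters cells. The mouse form binds the toxin poorly, which is why a receptor must be supplied by a transgene.

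Library totals ran from 4805018 to 6285624 counts, and 5419 (DT 1) to 8361 (PBS 4) genes had counts above 0. The sorting marker Epcam and the duct keratin Krt19 had counts in all 7 libraries, and the 10 listed cholangiocyte genes accounted for 1.53% to 2.01% of each PBS library and 1.93% to 2.12% of each DT library. Of 18 hepatocyte markers, 14 had counts, making up 0.241% to 0.356% of counts in PBS and 0.392% to 0.499% in DT. In counts scaled to library size (CPM), the highest, Gc, averaged 1335 in PBS and 1824 in DT, and Alb averaged 1022 and 1719. Of 9 tested hepatocyte markers, 8 had a positive and 1 a negative log2 fold change, DT over PBS. Cps1, Ass1, Tat and Cyp3a11 were at 0 in every library. Of 23 leukocyte markers, 14 had counts, making up 0.0172% to 0.164% in PBS, where PBS 4 was highest, and 0.0407% to 0.0809% in DT. The T cell genes Cd3e, Cd3g and Cd4 and the gene Foxp3 had 0 counts in every library, while the T cell gene Cd8a had 4 counts over 4 libraries. Y-linked genes had 2048 counts in PBS 1, none in the other 3 PBS libraries, and 880 to 1681 in DT. Markers of hepatocytes and Y-linked reads thus differ between the groups along with the treatment. Their part in the values of the EGF family was examined only by a covariate in the model, which cannot cleanly separate it from treatment.

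The EGF family held 2 well-read genes, Hbegf and Errfi1, and neither moved beyond the spread between libraries when DT was compared with PBS. Egfr and Btc were read at a lower level in all 7 libraries. Tgfa, Areg and Erbb2 were read in some libraries and listed at 0 or nearly 0 in others. Erbb3 was read in 1 library and Ereg in none. By the edgeR quasi-likelihood test, 0 of the 7 tested genes passed an adjusted p of 0.05 in either direction, and 0 had an unadjusted p below 0.05. Over all genes, 3 of 7688 tested genes (0.039%) passed, and 269 (3.5%) had an unadjusted p below 0.05. DESeq2 and limma-voom also called 0 of the 7, with 0 at an unadjusted p below 0.05 by either tool. In bulk libraries such as these, fewer cells of a type and less RNA per cell cannot be told apart.

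**Figure D1:**
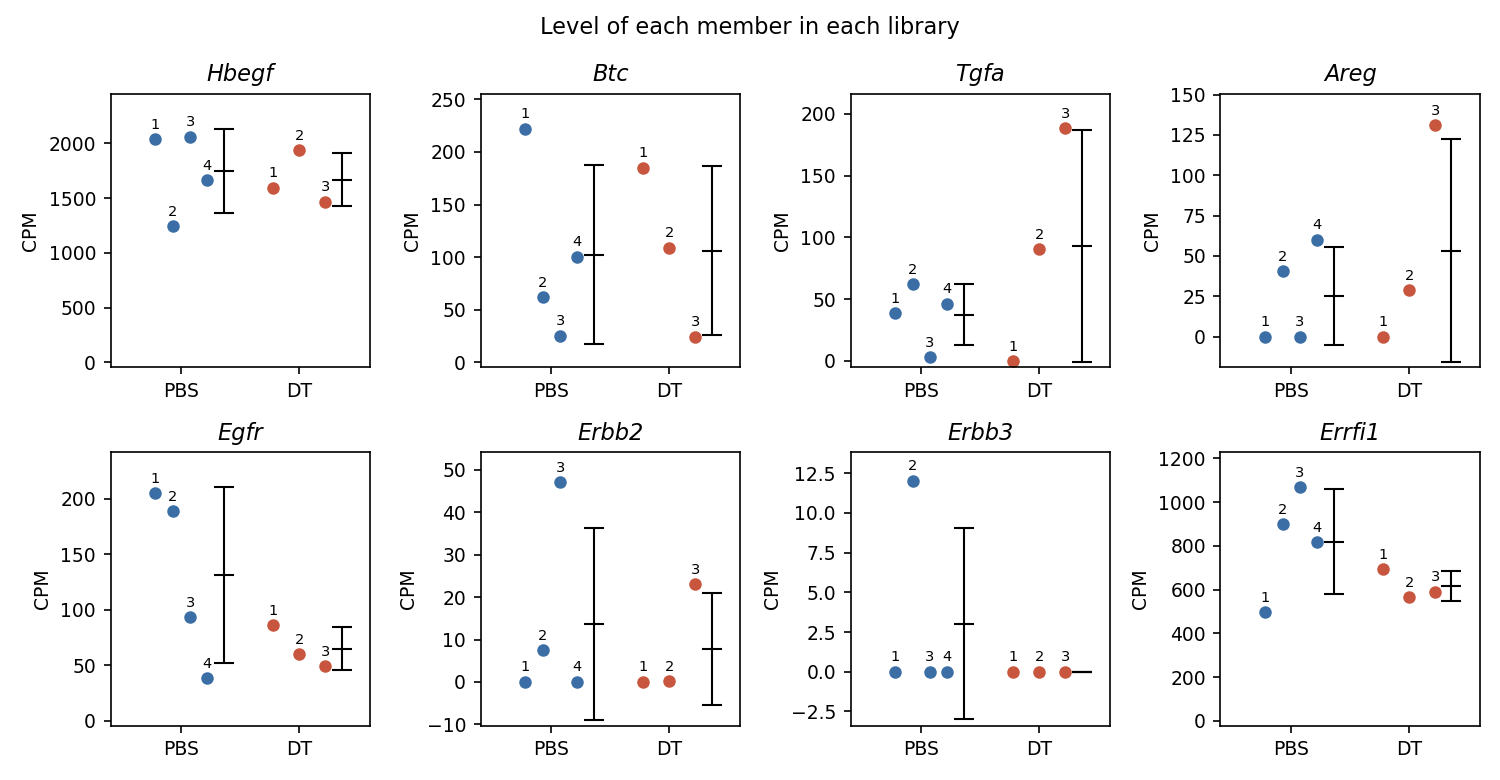
Level of 8 genes of the EGF family in each library, in counts scaled to library size (CPM) on a linear axis, with PBS in blue and DT in red. Digits are replicate numbers, and the bar to the right of each group is its mean ± SD (n = 4 and n = 3). The groups overlap in every panel, with Hbegf between 1241 and 2060 CPM and Erbb3 above 0 in PBS 2 alone. Ereg, at 0 throughout, is not drawn.

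Hbegf encodes heparin-binding EGF-like growth factor, a ligand of EGFR and ERBB4. Reads per library numbered 10482, 6296, 10000 and 8428 for PBS 1 to 4, against 9593, 10306 and 8331 for DT 1 to 3. Scaled to library size, this was 2035, 1241, 2060 and 1664 CPM in PBS and 1594, 1935 and 1469 CPM in DT. The lowest and the highest library were both PBS libraries, so that all DT values lay inside the PBS range. The PBS mean was 1750 ± 384 CPM (SD, n = 4) and the DT mean 1666 ± 241 CPM (SD, n = 3). The log2 fold change, DT over PBS, was -0.07 (SE 0.25, edgeR adjusted p = 1.00), which is a fold of 0.952 with a 95% interval of 0.675 to 1.34. A change within those bounds could not be resolved with 7 libraries. Its sign is undetermined, since the log2 fold change was 0.01 without PBS 3 or without DT 3.

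By count, Hbegf ranked between the 29th (PBS 1) and the 79th (PBS 2) of all genes in a library. Together the ligand genes summed to 1406 to 2295 CPM in PBS and 1779 to 2164 CPM in DT. CPM from 3′-end reads count transcript ends and were not divided by transcript length. On that scale Hbegf supplied 88.3% to 98.6% of the ligand reads in PBS and 81.0% to 89.6% in DT. The smallest share, in DT 3, stood in the library with the most Tgfa and Areg reads.

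**Figure D2:**
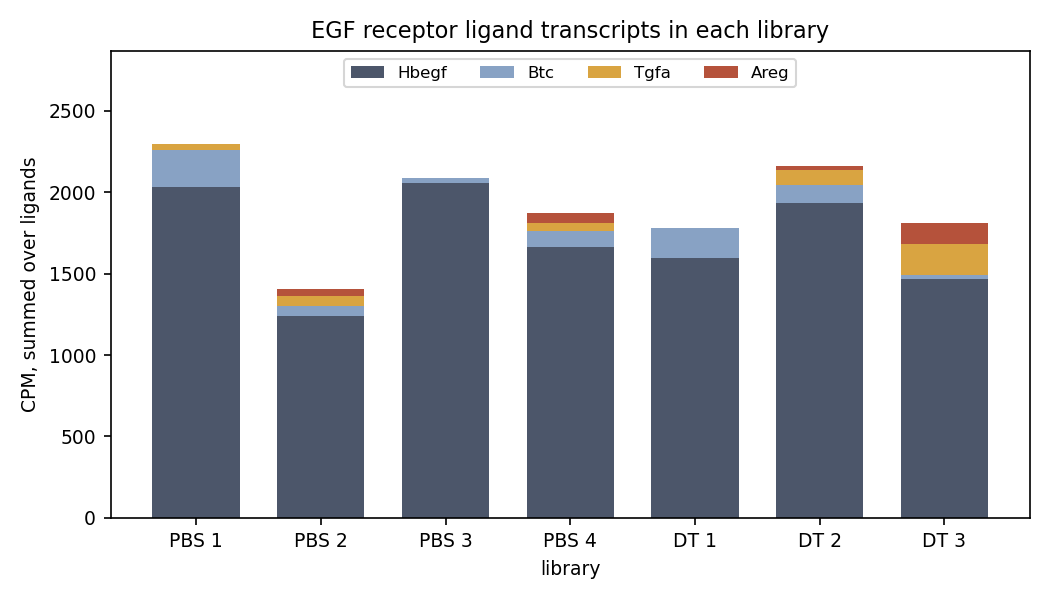
Summed level of the ligand genes in each library, in CPM on an axis that starts at 0, with 1 bar per library and 1 color per gene. Hbegf fills most of every bar, 81.0% in DT 3 and 98.6% in PBS 3, and the makeup of the small remainder differs from library to library.

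Btc encodes betacellulin, a ligand of EGFR and ERBB4. It was read 1144, 315, 123 and 509 times in libraries 1 to 4 of PBS, and 1114, 580 and 138 times in libraries 1 to 3 of DT. Both groups held a library over 1000 counts (PBS 1 and DT 1) and a library under 200 (PBS 3 and DT 3), and their ranges almost coincided. The PBS mean was 103 ± 85.4 CPM and the DT mean 106 ± 80.4 CPM, with a difference of 0.05 on the log2 scale (SE 1.21) and an edgeR adjusted p of 1.00. The spread was 83.3% of the mean in PBS and 75.8% in DT, against medians of 69.0% and 68.0% for 1698 other genes within 1.5 times the level of Btc. The direction turned without DT 1 (-0.64), without PBS 3 (-0.28) and without PBS 2 (-0.13).

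Tgfa encodes transforming growth factor alpha, an EGFR ligand made by many epithelia. Reads per library numbered 199, 314, 15 and 235 for PBS 1 to 4, against 0, 482 and 1067 for DT 1 to 3. DT 2 and DT 3 lay above all PBS libraries, and DT 1 lay below all of them. The PBS mean was 37.5 ± 24.9 CPM and the DT mean 92.9 ± 94.1 CPM, and the log2 fold change of 1.31 had an SE of 2.14 (edgeR adjusted p = 1.00). Most of that difference came from 1 library, for without DT 3 the log2 fold change was 0.27.

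Areg encodes amphiregulin, an EGFR ligand that is made by epithelia and is also known as a product of regulatory T cells in injured tissue. Reads per library numbered 0, 206, 0 and 304 for PBS 1 to 4, against 0, 154 and 743 for DT 1 to 3. Each group thus held libraries at 0 and libraries with more than 100 reads. The PBS mean was 25.2 ± 30.1 CPM and the DT mean 53.3 ± 68.8 CPM, with a difference of 1.08 on the log2 scale (SE 2.81) and an edgeR adjusted p of 1.00. Without DT 3 the log2 fold change was -0.80, so its direction rests on that library. DT 3 was the highest library for both Areg and Tgfa, and PBS 1, PBS 3 and DT 1, in which Areg was at 0, held the 3 lowest CPM values of Tgfa.

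Ereg, which encodes epiregulin, had 0 counts in all 7 libraries. A count of 0 allows up to 3 counts, or 0.498 to 0.618 CPM per library, by counting error alone, and the true limit is higher because counts of 0 were common in this table. In the RefSeq annotation of GRCm38.p6, Epgn, Ereg, Areg and Btc lie next to each other on mouse chromosome 5, with no other protein-coding gene between them. Epgn, which encodes the EGFR ligand epigen, was also at 0 in every library. Of these 4 neighbours, Btc had 3923 counts and Areg 1407 counts over the 7 libraries.

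Counts of 0 bear on each of the sparsely read genes. Over the whole table, 43.5% of values were 0 when the remaining libraries of that group had a mean of 100 to 200 counts, and 25.6% when that mean was 200 to 500. The share fell to 8.15% at 500 to 1000 counts and to 0.0841% at 2000 to 5000 counts. Areg averaged 128 counts in PBS, with 2 of 4 libraries at 0, and 299 counts in DT, with 1 of 3 at 0. Among 2400 genes within 1.5 times the level of Areg, 91.1% had a library at 0. For Areg and Erbb2, a library at 0 is therefore common for a gene at that level and does not show that the transcript was absent. The count of 0 for Tgfa in DT 1 is less usual by these shares, since the other 2 DT libraries averaged between 500 and 1000 counts. The shares pool all libraries, however, and DT 1 had fewer genes above 0 (5419) than DT 2 (7827) and DT 3 (7920).

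**Figure D3:**
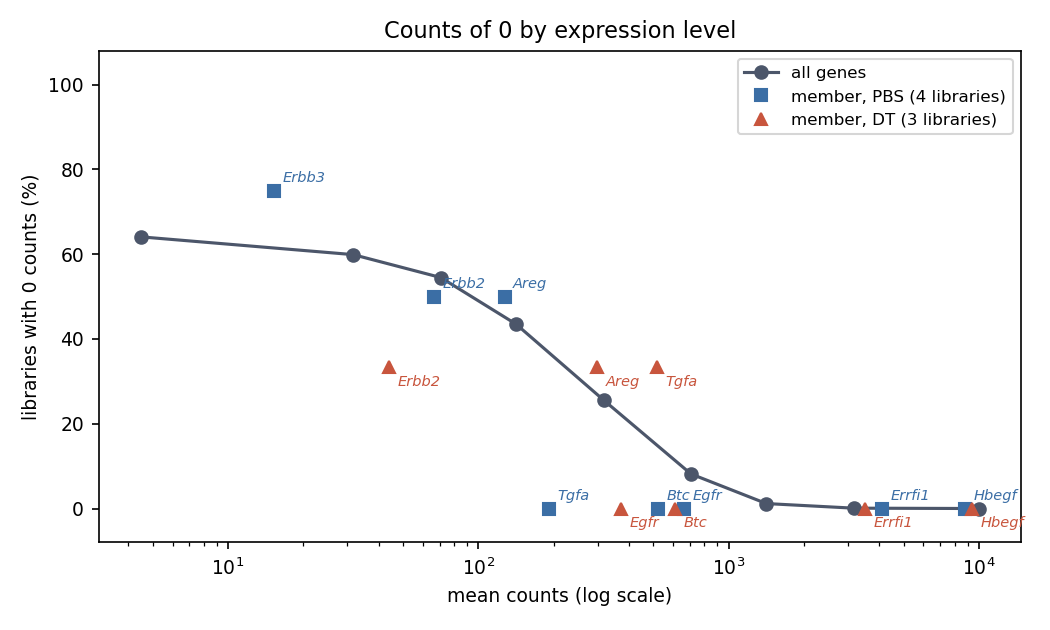
Share of libraries with 0 counts (%) against the mean count on a log axis. The grey line is all genes, grouped by the mean of the other libraries of the same group. Squares are EGF family genes in PBS and triangles the same genes in DT. Unlike the line, they are placed at the mean over all libraries of the group, counts of 0 included. Hbegf and Errfi1 sit where 0 is rare, and Areg, Erbb2 and Erbb3 sit where the line is at 25.6% or higher.

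Egfr encodes the EGF receptor itself. Reads per library numbered 1055, 957, 453 and 195 for PBS 1 to 4, against 519, 320 and 279 for DT 1 to 3. Scaled to library size, this was 205, 189, 93.3 and 38.5 CPM with PBS, and 86.2, 60.1 and 49.2 CPM with DT. In CPM, PBS 1 and PBS 2 were the highest libraries, PBS 4 was the lowest, and the 3 DT libraries lay between PBS 4 and PBS 3. The PBS mean was 131 ± 79.1 CPM and the DT mean 65.2 ± 19.0 CPM. The log2 fold change was -1.01 (SE 1.23, edgeR adjusted p = 1.00), a fold of 0.496 with a 95% interval of 0.0894 to 2.76. Leaving out single libraries kept it between -1.32 (PBS 4 omitted) and -0.72 (PBS 1 omitted). With the hepatocyte marker score as a covariate it was 0.44, but that score rose with DT, so the fit can hardly separate score from treatment. The spread of Egfr in PBS, 60.2% of the mean, was no wider than the median of 69.2% among 1713 genes near its level.

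Erbb2, the partner receptor, had 0, 38, 229 and 0 reads across PBS 1 to 4, against 0, 1 and 131 across DT 1 to 3. Only PBS 3 and DT 3 passed 100 counts. The log2 fold change of -0.81 had an SE of 3.38 (edgeR adjusted p = 1.00) and ran from -6.87 without DT 3 to -0.24 without DT 2. Without PBS 2 or PBS 3 the gene did not pass the filter on low counts, and by limma-voom the value was 0.38. Erbb3, the neuregulin receptor, had 61 counts in PBS 2 and 0 in the other 6 libraries, and was not tested. Among the 3 receptor genes, Egfr took 66.4% to 100% of the reads in PBS and 68.0% to 100% in DT, on the CPM scale without division by length.

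Further receptor and ligand genes were Erbb4, Egf, Epgn and Nrg1 to Nrg4. Of these 7 genes, Erbb4 and Nrg1 had any counts, and Erbb4 was the 1 that was tested. Erbb4, a receptor for neuregulins, betacellulin and HB-EGF, had 668, 9, 0 and 0 reads across PBS 1 to 4, against 702, 0 and 103 across DT 1 to 3. Its highest libraries, PBS 1 and DT 1, were also the highest for its ligand Btc. Both libraries held Y-linked reads, as did DT 2 and DT 3. The log2 fold change of Erbb4 was 0.45 (SE 2.83, edgeR adjusted p = 1.00), and -1.88 without DT 1. Nrg1 had 135 counts in DT 3 alone.

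Errfi1 encodes MIG6, which binds the kinase domain of activated EGFR and ERBB2, blocks it and promotes receptor breakdown. Its transcription is known to rise after receptor activation, which makes it a feedback inhibitor. Reads per library numbered 2555, 4558, 5192 and 4135 for PBS 1 to 4, against 4173, 3006 and 3355 for DT 1 to 3. In CPM this was 496, 899, 1069 and 816 in PBS and 693, 565 and 592 in DT. Of the PBS libraries, 3 lay above all DT libraries, and PBS 1 lay below all of them. The PBS mean was 820 ± 241 CPM and the DT mean 617 ± 67.8 CPM, with a difference of -0.41 on the log2 scale (SE 0.33) and an edgeR adjusted p of 1.00. The fold was 0.752 with a 95% interval of 0.477 to 1.18, and Errfi1 had the smallest unadjusted p of the tested EGF family genes (0.212). The log2 fold change was between -0.60 (without PBS 1) and -0.27 (without PBS 3) with 1 library left out. With a covariate for Y-linked reads, coded as present or absent, the log2 fold change was 0.31. PBS 1 was the only PBS library with such reads, and all DT libraries had them. That fit therefore compares DT with PBS 1 alone, the PBS library lowest for Errfi1.

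**Figure D4:**
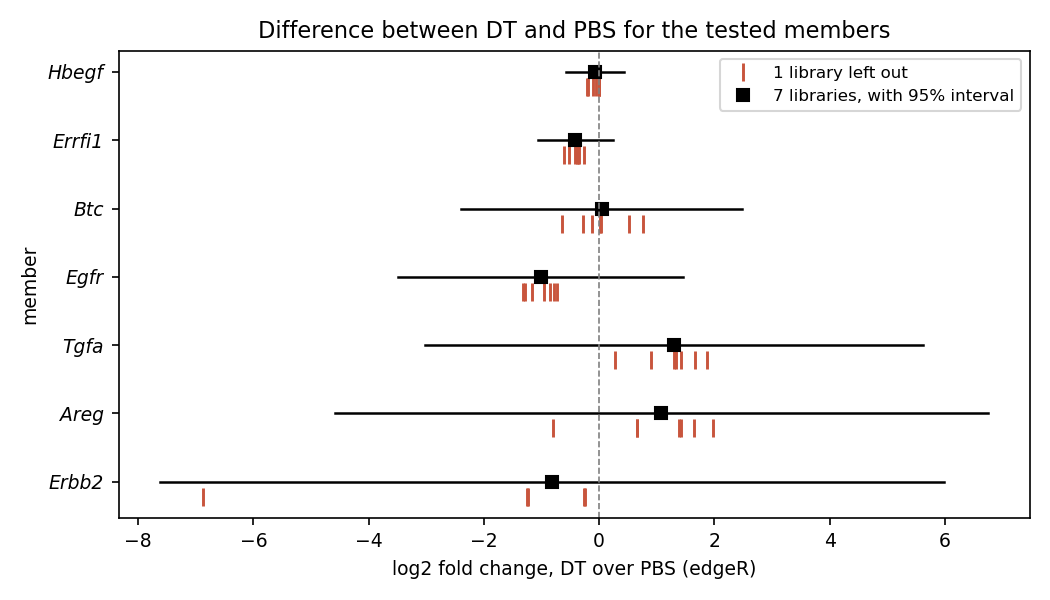
Log2 fold change, DT over PBS, of the 7 tested EGF family genes by the edgeR fit. Black squares with lines are the estimate and its 95% interval from 7 libraries, and red ticks are the estimates with 1 library left out. The intervals are narrow for Hbegf (-0.57 to 0.43) and Errfi1 (-1.07 to 0.24), wide for the other 5 genes, and all include 0.

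Promoters of these genes were searched because Areg and Errfi1 are known as genes that respond to signalling. Several motifs were searched, so a motif that Areg and Errfi1 share is given as a description only. RefSeq promoter windows on GRCm38.p6, from 250 bases before to 50 bases after the start, were searched for 6 of the 9 genes (7 windows, of which 2 were of Errfi1). Hbegf, Erbb3 and Ereg were not searched, so the motif results do not cover Hbegf, the most-read ligand gene. The full cAMP response element, TGACGTCA, which CREB and ATF proteins bind, was found in the Areg window and in 1 window of Errfi1, and in none of the windows of Egfr, Erbb2, Tgfa and Btc. Its letters read the same on both strands. It stood in 588 of 32851 promoter windows of the whole table (1.79%). The windows of Areg (chr5:91139349-91139648, plus strand) and Errfi1 (chr4:150854820-150855119, plus strand) are given here 5′ to 3′, with the element in capitals, to show its place upstream of the start.
Areg: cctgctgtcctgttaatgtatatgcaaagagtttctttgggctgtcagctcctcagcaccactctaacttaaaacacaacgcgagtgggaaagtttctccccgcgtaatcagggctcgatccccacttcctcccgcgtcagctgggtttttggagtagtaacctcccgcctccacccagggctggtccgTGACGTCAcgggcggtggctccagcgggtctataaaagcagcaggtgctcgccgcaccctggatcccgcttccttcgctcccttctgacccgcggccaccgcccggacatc
Errfi1: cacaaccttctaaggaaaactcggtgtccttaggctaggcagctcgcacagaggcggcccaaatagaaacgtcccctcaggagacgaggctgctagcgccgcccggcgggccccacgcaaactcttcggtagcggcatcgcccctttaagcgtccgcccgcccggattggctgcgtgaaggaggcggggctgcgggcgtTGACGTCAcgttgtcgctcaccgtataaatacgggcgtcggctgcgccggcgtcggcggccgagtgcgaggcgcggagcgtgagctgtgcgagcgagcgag

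The first base of the element lay at -61 in Areg and at -51 in Errfi1, counted from the start. Searched on both strands, the AP-1 motif TGANTCA, which does not overlap TGACGTCA, and the STAT motif TTCNNNGAA were in 0 of the 7 windows. They were in 7.81% and 8.3% of all windows. The TEAD motif GGAATG was in the Erbb2 window and in the other window of Errfi1, and in 14.7% of all windows. The Sp1 motif GGGCGG was in the windows of Egfr, Areg, Tgfa and the Errfi1 window printed here, and in 35.7% of all windows. A match is a stretch of letters and was not tested as a binding site. Areg was at 0 where Errfi1 was lowest (PBS 1) and also where it was highest (PBS 3). Counts of 0 are common at the level of Areg, so these counts cannot tell whether the genes vary alike.

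Likeness of pattern was described by the Pearson correlation of log2 CPM over the 7 libraries with 732 or 733 genes of an average log2 CPM of 8 or more. For Hbegf the nearest genes were Eprs (r = 0.861) and Ahnak (r = 0.846), and for Errfi1 they were Cald1 (r = 0.912) and Bptf (r = 0.903). For Egfr they were Dync1h1 (r = 0.892) and Tpm3 (r = 0.858), and for Btc Tapbp (r = 0.902) and Sec62 (r = 0.885). The correlations pool both groups, and genes of 1 library share its depth. Picking the highest of 732 or 733 correlations over 7 libraries can by itself give a large r. The values are therefore descriptions of these 7 libraries.

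The machinery around the receptors was examined in 5 lists, of which 0 genes passed the edgeR test over all genes. Among 12 genes for ligand shedding, 9 were tested, with 4 positive and 5 negative log2 fold changes and a median of -0.14, against -0.02 for all tested genes. Adam17, the protease that frees most of these ligands, had 0, 191, 550 and 939 reads across PBS 1 to 4, against 0, 0 and 415 across DT 1 to 3. Its log2 fold change of -1.78 had an SE of 2.49, and counts of 0 are common at its level. Adam10, another sheddase gene, averaged 208 ± 45.4 CPM with PBS and 148 ± 94.5 CPM with DT (log2 fold change -0.49, SE 0.68), with DT 3 lowest at 237 counts. Timp3, which encodes an inhibitor of ADAM17, averaged 161 ± 40.7 CPM with PBS and 272 ± 80.0 CPM with DT (log2 fold change 0.76, SE 0.59). DT 1, at 1084 counts, and PBS 4, at 1108 counts, kept the groups of Timp3 overlapping.

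Of 20 adaptor and RAS to ERK genes, all were tested, with 9 positive and 11 negative and a median log2 fold change of -0.21. Grb2, the adaptor that links receptors to RAS activation, averaged 234 ± 35.9 CPM with PBS and 136 ± 86.5 CPM with DT (log2 fold change -0.78, SE 0.66), where DT 1 alone was far down at 219 counts. Nras, a RAS gene, was at 231 ± 82.9 and 328 ± 118 CPM (log2 fold change 0.51, SE 0.50). Gab2, a docking protein gene, was read 465, 322, 0 and 164 times across PBS 1 to 4 and not at all with DT, with an unadjusted edgeR p of 0.0216 and an adjusted p of 1.00. DESeq2 called it lower (adjusted p = 0.0226), among 183 of 7701 genes (2.38%) that this tool called in either direction. No fold is given, since counts of 0 are common at its level. With Gab2 set to a floor of 3 counts per library the median of the list was still -0.21.

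Of 15 PI3K, AKT, STAT and SRC genes, 12 were tested, with 4 positive and 8 negative and a median log2 fold change of -0.69. The most-read genes of the list, chosen after their values were seen, lay near 0. They were Stat3 (log2 fold change 0.03, SE 0.31) and Jak1 (0.09, SE 0.37). Stat5a, a transcription factor gene, had 15 counts in PBS 4 and 0 in the other 3 PBS libraries, while DT 1 to 3 had 0, 353 and 373. Mtor, the growth kinase gene, was read 0, 203, 505 and 154 times across PBS 1 to 4, against 0, 149 and 0 across DT 1 to 3. Src, which encodes a kinase that works with EGFR, averaged 56.5 ± 58.9 CPM with PBS and 112 ± 31.6 CPM with DT (log2 fold change 0.98, SE 1.68). These 3 genes had the smallest p of the list, and each had an edgeR adjusted p of 1.00.

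Of 24 negative regulators and trafficking genes beside Errfi1, 19 were tested, with 10 positive and 9 negative and a median log2 fold change of 0.05. In 3 of the 19 the groups did not overlap, where 6.31% of all tested genes had no overlap. Eps15, an endocytosis adaptor gene, had 0, 2, 0 and 29 reads across PBS 1 to 4, against 120, 439 and 273 across DT 1 to 3 (edgeR adjusted p = 1.00). Also without overlap, and chosen after their values were seen, were Socs5 and Rnf41. Socs5 is an inhibitor of cytokine and EGF receptor signalling (log2 fold change 0.83, SE 0.62). Rnf41 is a ubiquitin ligase for ERBB3 (log2 fold change -1.92, SE 3.27). Rnf41 had 161, 146, 176 and 194 reads across PBS 1 to 4, against 0, 142 and 0 across DT 1 to 3. Counts of 0 are common at that level. Cblb, which encodes a ubiquitin ligase, was read 0, 143, 373 and 101 times across PBS 1 to 4 and not at all with DT. Its edgeR adjusted p was 1.00 (unadjusted 0.0323). Ptpn1, a phosphatase gene, had 4003 counts in DT 1 and 315 to 1609 in the other 6 libraries, and its log2 fold change went from 0.91 to -0.39 without DT 1.

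Of 28 ERK-responsive genes, 23 were tested, with 13 positive and 10 negative and a median log2 fold change of 0.01. Dusp1, a phosphatase gene that restrains MAP kinases, and Junb, an AP-1 subunit gene, had the smallest p. Dusp1 averaged 2381 ± 247 CPM with PBS and 1165 ± 356 CPM with DT (log2 fold change -1.03, edgeR adjusted p = 0.288), and Junb averaged 1780 ± 398 and 827 ± 164 CPM (-1.11, edgeR adjusted p = 0.288). For both genes the highest DT library was under the lowest PBS library. Among 733 genes at an average log2 CPM of at least 8, 95 (13%) had no overlap in either direction. Fosl1, another AP-1 subunit gene, was at 532 ± 115 and 318 ± 111 CPM (log2 fold change -0.74, SE 0.40, edgeR adjusted p = 1.00). Of other ERK-responsive genes, chosen after their values were seen, Dusp6, whose transcript follows ERK activity, had a log2 fold change of 0.0050 (SE 0.38), Egr1 0.10 (SE 0.25) and Fos 0.24 (SE 0.31). The edgeR test did not call Dusp1 or Junb, while DESeq2 (adjusted p = 3.3e-05 and 4.2e-05) and limma-voom (0.00266 and 0.0359) called both lower.

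**Figure D5:**
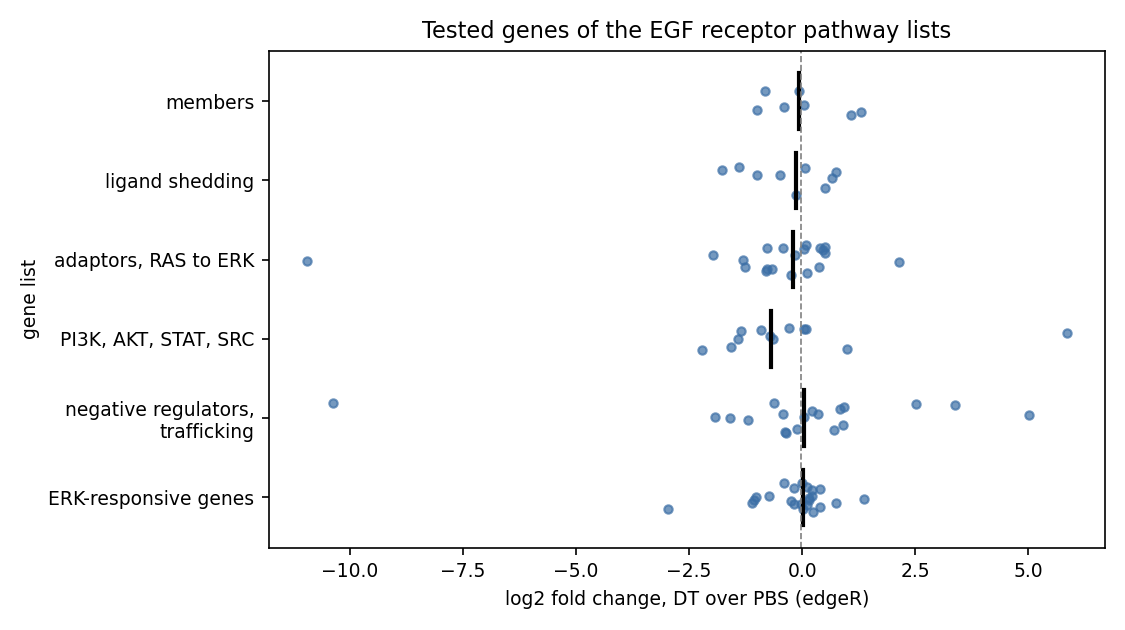
Log2 fold change, DT over PBS, of every tested gene in the EGF family and in 5 pathway lists by the edgeR fit, with 1 point per gene, scattered vertically for legibility. Black bars are list medians, from -0.69 to 0.05, and the dashed line is the median of all tested genes (-0.02). Points beyond -10, Gab2 and Cblb, are genes at 0 in all DT libraries, whose fitted values are not bounds.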

How the data were processed

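Per the labels' protocols, libraries were made with a QuantSeq FWD kit. The deposited values are raw counts per gene symbol. Reads were processed on mm9, per the submitters' processing notes. Which aligner, counter, annotation or molecular identifiers were used is not given in the sources used here. Titles supplied the groups and replicate numbers. Counts were scaled by TMM and filtered by filterByExpr in edgeR 4.0.16 (R 4.3.3), which kept 7688 genes with 97.5% of counts. The difference, DT over PBS, was tested by the quasi-likelihood F test (robust, two-sided, Benjamini-Hochberg adjustment over tested genes, threshold 0.05). A run on simulated data drew counts from means and dispersions fitted to these data. It therefore does not test whether that model suits the many counts of 0 in this table. SEs came from the fold change and F, and intervals (95%) from the t distribution. CPM are mean ± SD. Floors of 3 counts cover counting error only. Promoter coordinates are on GRCm38.p6, another build than that of the counts. Alternatives used DESeq2 1.42.0, limma 3.58.1, other factors, filters and covariates, the replicate block and leaving out each library. Named were the 9 family genes, per pathway list the 3 genes with the smallest p, and 2 like genes per gene read in all libraries. Genes and lists were chosen with earlier results of these data known. Figures were drawn with matplotlib 3.10.9. Same-numbered libraries did not deviate together (closing section).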

Additional observations from a re-analysis of the deposited data

Results flagged for a closer look

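In the PBS libraries, 2 of the 8 genes with counts had 1 library far from the others. Chance flags about 1 in 20 groups of normally distributed values, which does not apply to genes mostly at 0, where a gene read in 1 of 4 libraries always stands apart. Erbb2 was at 229 counts in PBS 3, and the distance to its neighbour in value, PBS 2, spanned 0.841 of the whole PBS range. Erbb3 was read in PBS 2 alone (61 counts), so that this distance spanned the entire range (ratio 1). Both genes averaged under 100 counts in PBS, a level at which 54.5% or more of values in the whole table were 0.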

How the results depend on the processing

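Over 20 alternatives, 0 of 133 values of the 7 tested EGF family genes passed the threshold, 116 kept their direction and 17 turned. RLE and upper quartile factors turned none. With the hepatocyte score the log2 fold change of Egfr was 0.44, of Areg -8.56, of Hbegf 0.21, of Tgfa -1.13 and of Fosl1 0.025. The hepatocyte markers summed to 2316 to 3865 CPM in PBS and 3704 to 5528 CPM in DT. That fit can therefore hardly separate the score from treatment. With the leukocyte score the log2 fold change of Erbb2 was 3.18. The fit with the Y-linked covariate compares DT with PBS 1 alone, the only PBS library with such reads. Its log2 fold change was 8.37 for Erbb2, -1.06 for Btc, 0.31 for Errfi1 and -1.53 for Erbb4. It was 0.0070 for Adam10, 10.02 for Adam17, 8.63 for Mtor, -0.15 for Src and -0.030 for Ptpn1. Erbb2, Adam17 and Mtor had 0 counts in PBS 1. By limma-voom the log2 fold change was 0.38 for Erbb2, 0.018 for Hbegf and -0.35 for Btc. Leaving out 1 library gave -0.80 to 1.97 for Areg, -0.20 to 0.0062 for Hbegf, -0.64 to 0.76 for Btc, -1.88 to 1.03 for Erbb4 (which failed the filter without PBS 1, the library with most of its PBS reads) and -0.39 to 1.43 for Ptpn1. The cause was not tested.

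Genes higher and lower in DT numbered 0 and 3. They numbered 1 and 7 with no filter, 47 and 136 by DESeq2, and 6 and 6 by limma-voom. Filtering at average log2 CPM 3 gave 1 higher, filtering at 8 gave 5 lower, and the Y-linked covariate gave 23 higher. With any 1 library left out, the range was 0 to 1 higher and 1 to 4 lower. The fit with a replicate block called 6 higher and 6 lower, and no EGF family gene passed (Hbegf -0.07, Errfi1 -0.35). Deviations from the group means of 733 highly expressed genes correlated at -0.06 to 0.0251 between same-numbered libraries, none over 0.1, and 1 of 3 DT libraries was closest to the PBS library of its number. Dusp1 passed as lower with no filter, either filter on average level, the block, DESeq2, limma-voom and without DT 2 (adjusted p from 3.3e-05 to 0.0481), and Junb with no filter, the filter at 8, the block, DESeq2 and limma-voom (4.2e-05 to 0.0393).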
